A study of Mus musculus with 12 samples.

Results

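The livers of mice given an overdose of acetaminophen (APAP, paracetamol) followed by vehicle were compared with those of uninjured mice, gene by gene, by bulk RNA sequencing. The comparison used every library labelled as APAP injury with PBS (5 livers, vehicle 1 to 5) or as control (3 livers, control 1 to 3), which are 8 of the 12 livers sequenced. All mice were C57BL/6J by the labels, and the study's methods name the OlaHsd substrain. The vehicle group received APAP, at 350 mg/kg by the labels, and a tail vein injection of PBS without cells 16 h later. By the study's methods the vehicle was PBS with or without cryopreservation medium, and injected mice were then moved to a warming cabinet. The study's text names a higher dose for the injury model with which it shows these data. The control mice were untreated. The other 4 livers received APAP and human alternatively activated macrophages (hAAMs). They were not part of the comparison, but they entered the gene filter, the scaling and the estimate of the spread. By the study's methods the mice were 10 to 12 weeks old and of either sex, and APAP was injected after a 12 h fast with food returned 20 min later. All 8 livers compared carried Y-linked messages (Ddx3y at 3144 to 4281 counts), with Xist at 16 to 149 counts, as in male mice. Livers were collected 32 h after APAP by a figure legend and 36 h after it by the methods. The methods name the fast also for mice injected with saline, while the labels call the control mice untreated. Whether these controls were fasted or injected, and at what time of day they were culled, is therefore not settled by the sources used here. Hence APAP, the vehicle injection, warming, fasting, refeeding and time of day cannot be told apart in any value below.

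APAP is turned into a reactive quinone imine by cytochromes P450, chiefly Cyp2e1 and Cyp1a2, which lie in the hepatocytes around the central vein. Once glutathione is spent, these pericentral hepatocytes die. Monocytes then enter the dead zone and clear it, stellate cells lay down a temporary matrix, and the hepatocytes that remain divide until the lobule is restored. In bulk tissue, fewer cells of a type and less RNA per cell cannot be told apart.

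The control libraries held 60870399 to 74056505 counts and the vehicle libraries 50859599 to 61826952. Counts were scaled with TMM and are given as CPM (counts per 1000000). TMM assumes that most genes keep their level. Its factors were 0.832 to 0.859 in control and 1.02 to 1.13 in vehicle livers, and scaling to plain library totals moved the median change over all genes by 0.35 (log2), so changes smaller than this depend on the scaling. Vehicle 3 lay nearest to the controls, with a spread over genes of 4.21 to 4.92 times the counting noise against 5.53 to 7.79 for the other vehicle livers. Its counts differed from those of hAAM replicate 4 by only 1.19 times the noise, while the other 65 pairs of libraries lay at 2.51 to 7.79. These 2 libraries carry different labels and both were kept, but whether they hold the same RNA was not settled, so vehicle 3 may not be an independent vehicle liver. Without both, 6743 genes passed, 476 of them over 2-fold, against 6719 and 362 with all livers. Control 1 stood apart from the other controls in immediate-early and inflammatory genes, and values without it are given where it decides a result. The fragmentation time during library preparation followed RNA quality, which is not given per liver. A leftover ribosomal RNA gene (CT010467.1) stood at 1030 to 1390 CPM in control livers and at 733, 214, 42.4, 903 and 209 CPM in vehicle 1 to 5, and its part in the results was not tested.

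Of 22581 genes tested, 6719 changed at a false discovery rate (FDR) under 0.05 in edgeR's quasi-likelihood test, a background of 29.8%. Of these, 3380 were higher after APAP (15.0%) and 3339 lower (14.8%). Scaled by library size alone, 9747 genes passed and 88.6% of them were higher, against 50.3% with TMM. Changes shown to exceed 2-fold by edgeR's test against that threshold were far fewer, with 183 genes higher (0.810%) and 179 lower (0.793%). When only the 8 livers compared were fitted, 6958 genes changed, with 271 higher and 165 lower over 2-fold. Without control 1, control 2 or control 3 the 362 genes over 2-fold became 222, 225 or 142. In 7863 genes (34.8%) the 5 vehicle and 3 control livers did not overlap. Protein-coding genes passed in 36.4% of cases and processed pseudogenes in 13.9%, and the share called climbed from 17.4% among the genes of lowest level to 41.1% among those of highest level, with genes ranked by level and cut into 4 equal groups.

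**Figure D1:**
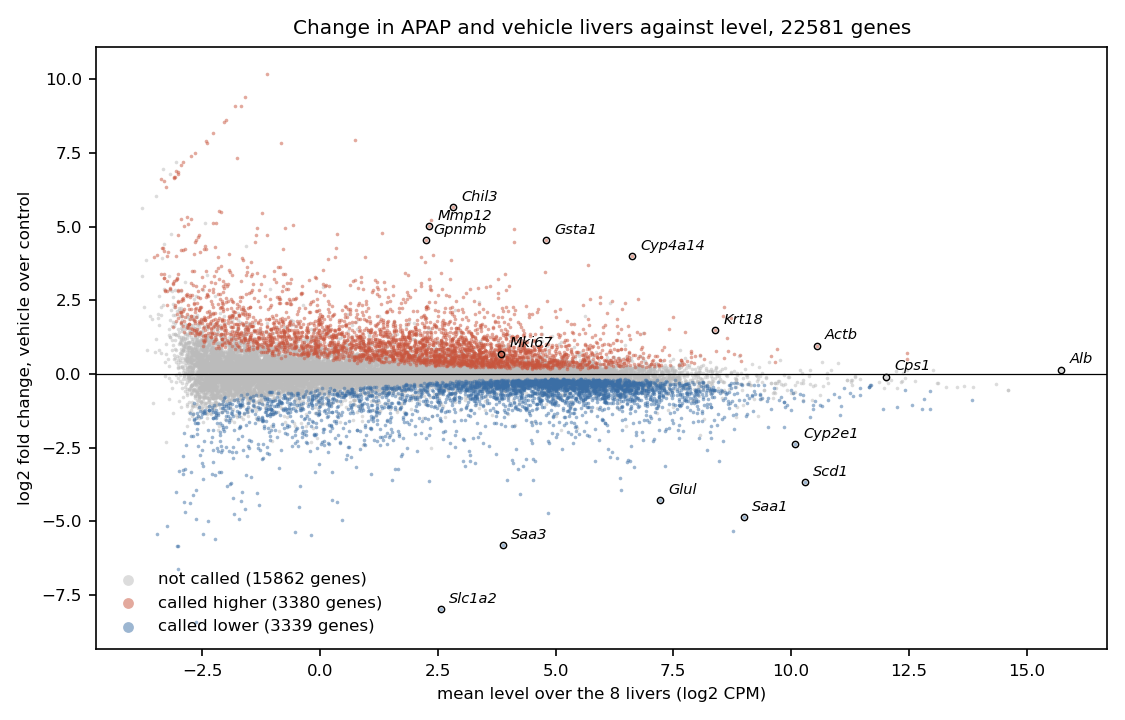
Each point is 1 of the 22581 genes, with its mean level over the 8 livers (log2 CPM) on the x axis and the log2 fold change of APAP and vehicle over control on the y axis. Genes called at an FDR under 0.05 and those over 2-fold are coloured, and calls run on both sides of the line at 0 at every level.

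Gene lists were compiled by cell type or pathway (48 in all). They can be read against the background shares of 15.0% of genes higher and 14.8% lower.

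**Figure D2:**
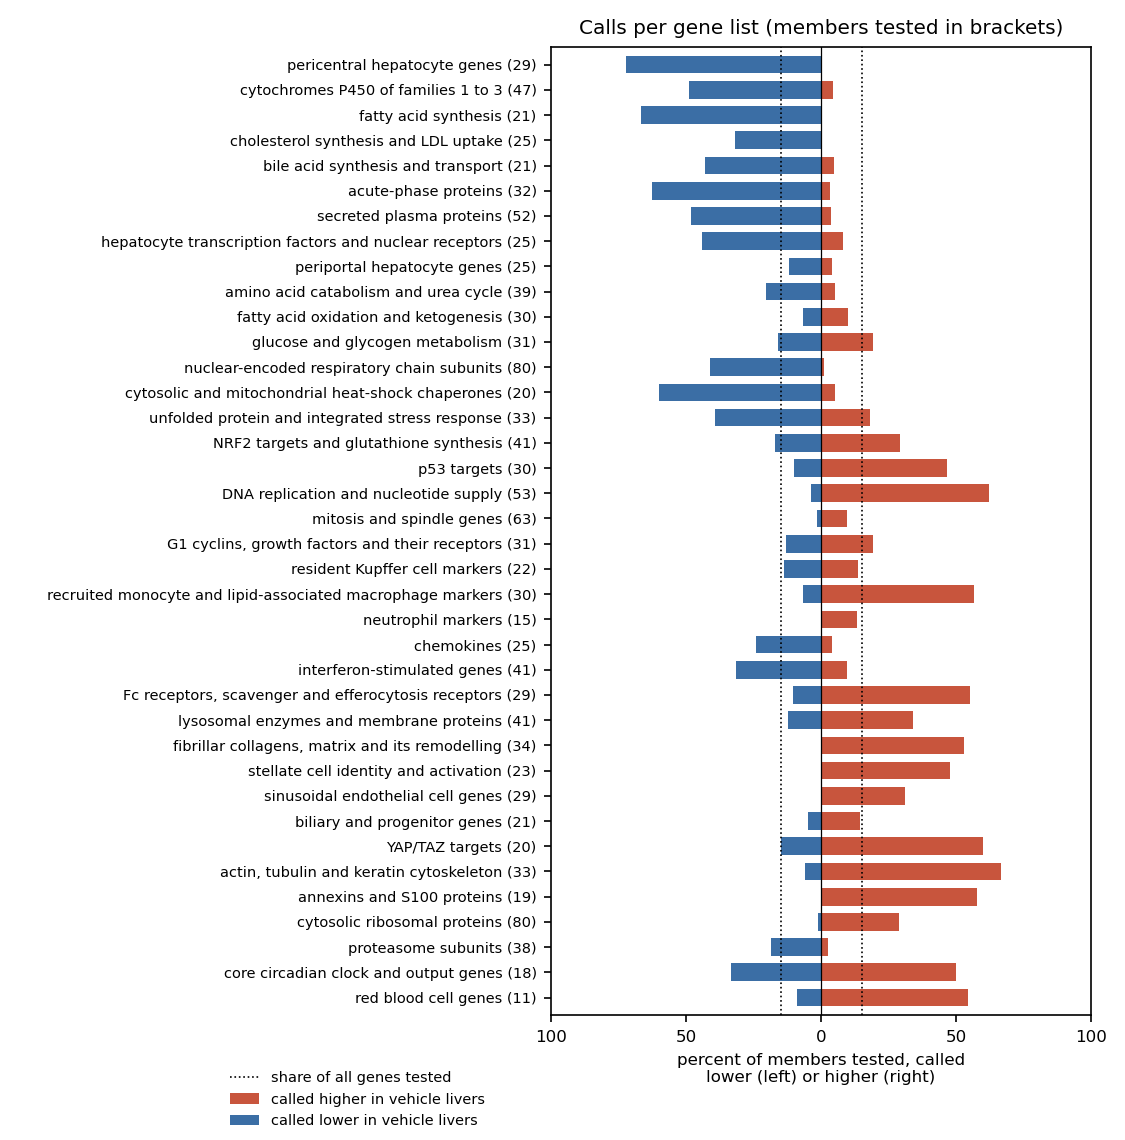
Bars give, for 38 gene lists, the percent of tested members called lower (left) or higher (right) in the 5 vehicle livers against the 3 control livers. Dotted lines mark the shares over all genes tested, 14.8% lower and 15.0% higher, and the pericentral list (29 genes) reaches furthest to the left.

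The pericentral programme was lower after APAP while most of the periportal programme was not called. Of 29 genes of pericentral hepatocytes, 21 fell, none rose, and the median log2 fold change was −1.98, against 0.01 over all genes tested. Their summed level was 6530 to 9980 CPM in control livers and 1500, 1420, 2740, 748 and 1930 CPM in vehicle 1 to 5. Every vehicle liver lay below every control liver, with vehicle 4 the lowest and vehicle 3 the highest.

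Glul, the glutamine synthetase of the last hepatocyte layer around the central vein (chr1:153899944-153909723, plus strand), stood at 1110, 636 and 1170 CPM in control livers. In vehicle 1 to 5 it stood at 53.8, 40.8, 42.5, 50 and 63.9 CPM, a log2 fold change of −4.27 ± 0.244 (SE, FDR 2.5e-06). The vehicle livers lay close to each other for this gene, vehicle 3 included. Slc1a2, a glutamate transporter of the same cells (chr2:102658659-102790784, plus strand), had the largest fall of the genes named by rule. It stood at 173 to 252 CPM in control livers and at 0.912, 0.540, 1.96, 0.517 and 0.281 CPM in the vehicle livers, a log2 fold change of −7.97 ± 1.34 (FDR 0.00153). Oat, which makes glutamate from ornithine, fell from 308 to 484 CPM to between 26.3 and 44.8 CPM.

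The Wnt pathway maintains this zone, and some of its hepatocyte members fell while the ligands were not called. The receptor Lgr5 stood at 16.2, 10.7 and 12.2 CPM in control livers and at 0.814 to 2.5 CPM in vehicle livers (log2 fold change −3.21 ± 0.367, FDR 0.0002). Axin2, a direct target of the pathway, fell by 1.97 on the log2 scale. The endothelial ligands Wnt2 and Wnt9b had log2 fold changes of −0.20 and 0.25, and the enhancer of the signal Rspo3 of −0.16, with overlapping groups. For these ligands the test neither shows a change nor shows that there was none.

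The P450 that activates APAP fell too, with wide spread among the injured livers. Cyp2e1 stood at 3990, 2560 and 3750 CPM in control livers and at 402, 480, 1300, 239 and 892 CPM in vehicle 1 to 5 (log2 fold change −2.37 ± 0.654, FDR 0.0177). The groups did not overlap, but the call was lost without control 1, at a log2 fold change of −2.25. Cyp1a2, the second of these enzymes, stood at 178 to 553 CPM in control livers and at 190, 115, 64.1, 27.7 and 13 CPM in vehicle livers. Vehicle 1 overlapped the controls, and the call at an FDR of 0.0475 was lost when control 1 (log2 fold change −1.52), control 3 (−2.16) or any vehicle liver but vehicle 1 (−1.78 to −2.21) was left out. Among 47 cytochromes P450 of families 1 to 3, which oxidise drugs and steroids, 23 fell and 2 rose. The number that fell dropped to 11 without control 1, 15 without control 3 and 14 without vehicle 4. Cyp2c29 (chr19:39269405-39330713, plus strand) fell from 537 to 779 CPM to 32.9, 31.2, 112, 3.16 and 27.2 CPM in vehicle 1 to 5, and reads of the near-identical Cyp2c genes may be shared between them. Cyp2a12 and Cyp2a22 were the 2 that rose, by 0.55 and 0.71 on the log2 scale. Cyp2a12 rose from 293 to 309 CPM to between 416 and 491 CPM without overlap.

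On the periportal side, 1 of 25 genes rose and 3 fell, below the background shares, with a median log2 fold change of −0.03. Cps1 and Ass1, enzymes of the urea cycle, were not called. Cps1 stood at 4830, 4870 and 3610 CPM in control livers and at 6020, 4510, 4400, 3610 and 2270 CPM in vehicle livers, and Ass1 at 1470 to 1990 CPM against 538 to 1930 CPM. Vehicle 5 was the lowest liver for both. The 3 that fell were Cyp2f2, Otc and Fbp1, and Otc (log2 fold change −1.07) lost its call without control 1 (−0.95), control 2 (−1.09) or vehicle 4 (−0.99). Cyp2f2, a P450 of periportal hepatocytes, stood at 511 to 624 CPM in control livers and at 290, 164, 281, 165 and 51.6 CPM in vehicle livers, and its call was lost without control 1 (log2 fold change −1.51). Sds, the serine dehydratase used in gluconeogenesis, rose by 1.33 on the log2 scale with vehicle 5 inside the control range, and lost its call without control 1 (1.38), control 3 (1.10) or vehicle 1 (1.2). The number that rose was 2 without vehicle 3 and the number that fell 5, and without control 1 these were 0 and 1. By library size alone 7 rose and 2 fell. The pericentral minus periportal difference was not tested by itself.

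**Figure D3:**
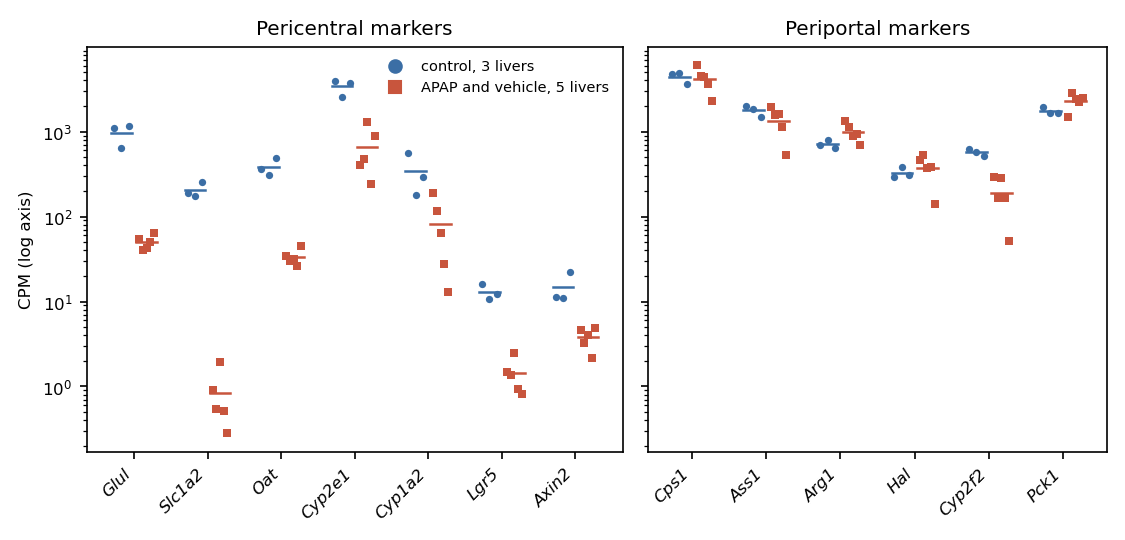
CPM of single genes on a log axis, for pericentral and periportal hepatocyte genes, with 1 point per liver (circles, 3 control livers; squares, 5 APAP and vehicle livers). For Glul the vehicle livers lie at 40.8 to 63.9 CPM below control livers at 636 to 1170 CPM, whereas for Cps1 the groups overlap.

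Hepatocyte transcription factors had a median log2 fold change of −0.34. Of 25 factors and nuclear receptors, 11 fell and 2 rose, and the number that fell was 7 without control 3 and 5 by library size alone. Hnf4a, the central factor of hepatocyte identity, stood at 780 to 849 CPM in control livers and at 546 to 718 CPM in vehicle livers. Its log2 fold change of −0.38 lost its call when any control liver or any of vehicle 1, 4 and 5 was left out (−0.33 to −0.40) and shrank to −0.03 by library size alone. Xbp1, a factor of secretory capacity, fell from 289 to 345 CPM to between 128 and 157 CPM (log2 fold change −1.19, FDR 1.9e-05).

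Most genes of fatty acid synthesis fell. Of 21 genes of the pathway 14 fell and none rose, with a median log2 fold change of −1.14. Scd1, the desaturase that makes oleic acid (chr19:44394455-44407879, minus strand), stood at 11300, 6500 and 7000 CPM in control livers. It stood at 310, 366, 2100, 221 and 229 CPM in vehicle 1 to 5, a log2 fold change of −3.68 ± 0.723 (FDR 0.00342). Vehicle 3 held several times as much Scd1 as the other vehicle livers, and still lay below every control. Fasn, the fatty acid synthase, followed the same order at 217, 291, 617, 143 and 205 CPM against 970 to 1210 CPM in control livers. Acacb, which makes malonyl-CoA at the mitochondrion, fell by 2.81 on the log2 scale and Elovl6, an elongase, by 2.13. Srebf1, which drives the pathway under insulin, was not called, at a log2 fold change of 0.06 ± 0.285, with 134 to 289 CPM in the vehicle livers and 177 to 288 CPM in the controls. In the summed level of the list the vehicle livers ranged from 2090 to 2910 CPM except vehicle 3, at 6210 CPM, below controls of 12000 to 17600 CPM.

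Cholesterol and bile acid genes also moved down. Of 25 genes of cholesterol synthesis and LDL uptake 8 fell, or 5 when control 2, control 3, vehicle 1, vehicle 4 or vehicle 5 was left out. Srebf2, the regulator of the pathway, was not called (log2 fold change −0.07). Of 21 genes of bile acid synthesis and transport, 9 fell and 1 rose. Abcb11, the bile salt export pump, fell from 646 to 793 CPM to 201, 247, 333, 168 and 91.0 CPM (log2 fold change −1.78 ± 0.333, FDR 0.00267), and Cyp7b1, which hydroxylates oxysterols, fell from 125 to 323 CPM to between 14.9 and 37.5 CPM. Abcc4, an exporter on the blood side of the hepatocyte, was the gene that rose, from 4.31 to 4.77 CPM to between 8.48 and 11 CPM. Cyp7a1, the rate-limiting enzyme of bile acid synthesis, varied over 4.83 to 76.8 CPM in vehicle livers and 41.9 to 183 CPM in control livers and was not called.

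Genes of fatty acid oxidation split the injured livers. Of 30 such genes 3 rose and 2 fell, below the background shares. The rises were 1 without any 1 control liver, vehicle 3 or vehicle 5, and 5 without vehicle 2. The list's median log2 fold change was 0.19. Its summed level was 5340 to 7730 CPM in control livers and 3590, 3960, 7770, 3650 and 8740 CPM in vehicle 1 to 5. In this sum vehicle 1, vehicle 2 and vehicle 4 lay below every control. Cyp4a14, an omega-hydroxylase under the nuclear receptor PPARα, stood at 41.0, 25.4 and 11.7 CPM in control livers. In vehicle 1 to 5 it stood at 103, 68.6, 838, 139 and 947 CPM. Vehicle 3 and vehicle 5 were the highest, and the call (log2 fold change 4.01, FDR 0.0352) was lost without either of them (3.6 and 3.47) or without any control liver (3.66 to 4.5). Acot2, a thioesterase of the same programme, was highest in the same livers, at 13.6 and 40.2 CPM against 5.15 to 6.50 CPM in the other vehicle livers. Its log2 fold change of 2.23 lost its call without any 1 control liver (2.03 to 2.59), vehicle 3 (2.24) or vehicle 5 (1.33). In glucose metabolism 6 of 31 genes rose and 5 fell. Pkm, the pyruvate kinase of non-hepatocyte and growing cells, rose from 18.5 to 22.5 CPM to 141, 104, 57.0, 194 and 145 CPM, while Pygl, the liver glycogen phosphorylase, fell by 1.21 on the log2 scale. Pck1 and G6pc, enzymes of gluconeogenesis, overlapped between the groups.

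Secreted plasma proteins fell, with albumin not called. Of 52 secreted proteins outside the acute-phase list, 25 fell and 2 rose. Alb stood at 61800, 58500 and 35700 CPM in control livers and at 50000, 62900, 69800, 47000 and 58000 CPM in vehicle livers (log2 fold change 0.15 ± 0.281). The complement component C6 fell by 1.90 on the log2 scale, from 390 to 512 CPM to between 91.6 and 136 CPM, and Mbl1, a mannose-binding lectin that starts the complement cascade, by 1.63. C3, the hub of the cascade, lost more CPM than any other gene called, with 15300, 26900 and 24000 CPM in control livers and 10300 to 12900 CPM in vehicle livers. Its call at a log2 fold change of −0.90 was lost without control 2 (−0.74) or control 3 (−0.84). Mug1, a protease inhibitor, and Ahsg, fetuin-A, were the 2 that rose. Their log2 fold changes of 0.71 and 0.51 were lost without control 2 (0.52 and 0.60) or control 3 (0.64 and 0.42), that of Ahsg also without control 1 (0.52) or without vehicle 1, 2 or 3 (0.45 to 0.51).

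Most acute-phase genes were higher in the untreated livers than in the injured ones. Of 32 such genes, which hepatocytes induce under interleukin-6 and interleukin-1, 20 fell and 1 rose, with a median log2 fold change of −1.06. The serum amyloid A genes lie together on chromosome 7, with Saa3 at chr7:46711998-46715700, Saa1 at chr7:46740497-46742980 and Saa2 at chr7:46751790-46754313. Saa1 stood at 2020, 5360 and 7670 CPM in control livers and at 179, 148, 167, 38.0 and 330 CPM in vehicle livers (log2 fold change −4.86 ± 0.720, FDR 0.00082). Saa3 stood at 209, 188 and 176 CPM in control livers and at 2.17 to 5.75 CPM in vehicle livers (log2 fold change −5.82 ± 0.464, FDR 2.5e-05). All 3 controls were high for both, and the groups were far apart. Saa1 and Saa2 are near-identical copies that may share reads. Steap4, a metalloreductase of the same response, held to a narrow range within each group, at 1540, 1080 and 1210 CPM in control livers and 160, 160, 171, 160 and 165 CPM in vehicle livers. Crp fell from 604 to 759 CPM to between 199 and 235 CPM, and Stat3, which carries the interleukin-6 signal, from 291 to 300 CPM to between 153 and 191 CPM. The fibrinogen chains Fga, Fgb and Fgg fell by 1.18, 1.05 and 1.19 on the log2 scale. Lcn2 and Serpina3n did not pass, with Lcn2 at 294 to 1050 CPM in control and 237 to 1040 CPM in vehicle livers.

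Inflammatory signals showed the same direction in part. Cxcl1, a neutrophil attractant, stood at 356, 193 and 173 CPM in control livers and at 26.0 to 56.5 CPM in vehicle livers (log2 fold change −2.65 ± 0.273, FDR 9.9e-05). Il1r1, the interleukin-1 receptor, fell by 1.49 on the log2 scale and Tnfrsf1a, the main receptor of TNF, by 0.63. Among 25 chemokines 6 fell, or 3 without vehicle 4, and Ccl6, a macrophage chemokine, rose, its log2 fold change of 1.79 losing its call without control 1 (1.71) or control 2 (1.67). Without control 1, 4 chemokines rose. Control 1 alone held high values of several. Cxcl10 stood at 77.4, 2.06 and 1.46 CPM in control livers and at 2.89 to 6.16 CPM in vehicle livers. It was not called with all livers (log2 fold change −2.52) and was called lower without control 2 (−3.07) or control 3 (−3.08). Ccl2, the monocyte attractant, stood at 34.1, 1.97 and 0.929 CPM against 5.61 to 22.4 CPM. Without control 1, Ccl2 was called higher at a log2 fold change of 3.27. Il1b had a log2 fold change of −1.95 with control 1 and of −0.26 without it, where its call was lost, as it was when any vehicle liver but vehicle 5 was left out (−1.75 to −2.13). The inflammasome sensor Nlrp3 went from −0.25 to 1.13, called higher, without control 1. Interferon-stimulated genes gave 4 rises and 13 falls among 41. Rsad2 rose from 5.31 to 9.89 CPM to between 23.5 and 30.8 CPM, Ifi47 fell from 25 to 38.5 CPM to between 11.3 and 15.2 CPM, and Irf7 was not called. The number that rose was 2 when control 2, control 3, vehicle 1, vehicle 2 or vehicle 4 was left out.

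The circadian clock list had the highest share called of the 48 lists (83.3%), with 9 of 18 genes higher and 6 lower. The clock runs on Arntl and its partners, which drive the Per genes and the output factors that then feed back. Ciart, a repressor of Arntl, stood at 0.667, 0.818 and 0.909 CPM in control livers and at 13.4, 9.31, 7.63, 7.42 and 5.31 CPM in vehicle livers (log2 fold change 3.43 ± 0.425, FDR 0.0003). Dbp, an output factor, rose from 0.438 to 2.13 CPM to between 5.48 and 11.8 CPM, and Per3 from 2.73 to 7.47 CPM to between 20.1 and 31.4 CPM. Arntl fell from 36.4 to 46.5 CPM to between 9.88 and 22.9 CPM, Npas2 by 2.17 on the log2 scale and Nfil3, which opposes Dbp, from 71.0 to 106 CPM to between 13.1 and 25.6 CPM. None of these genes overlapped between the groups, vehicle 3 included. Time of day, which is not given for either group, cannot be told apart from the treatment here.

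Stress programmes were mixed. Of 41 genes of glutathione synthesis and of NRF2, the factor that answers electrophiles and oxidants, 12 rose and 7 fell. Besides targets the list holds Nfe2l2, the gene of NRF2, not called, and its inhibitor Keap1, among the falls (log2 fold change −0.28). Srxn1, which repairs peroxiredoxins, stood at 22.8, 21.5 and 25.3 CPM in control livers and at 76.0, 74.7, 63.7, 90.1 and 117 CPM in vehicle livers (log2 fold change 1.86 ± 0.248, FDR 0.00045). Nqo1 rose from 1.66 to 3.01 CPM to between 4.68 and 6.49 CPM, and Slc7a11, the cystine importer for glutathione synthesis, from 0.362 to 1.2 CPM to between 2.25 and 14.1 CPM. Gsta1 rose from 1.15 to 9.68 CPM to between 67.3 and 129 CPM, and its neighbour copy Gm3776, which may share reads with it, behaved alike. Gclc and Gclm, the subunits of the enzyme that limits glutathione synthesis, were not called (log2 fold changes −0.12 and −0.15). Me1 and Gstm2 fell by 1.57 and 1.76 on the log2 scale. Hmox1 stood at 123 CPM in control 1 and at 33.3 and 26.6 CPM in the other controls, against 37.5 to 105 CPM in vehicle livers, and was not called. Of 43 RefSeq promoters (GRCm38.p6, 250 bases before to 50 after the start) matched to 35 genes of this list, 12 held the letters TGACNNNGC of the antioxidant response element on either strand, or 27.9%, against 12.4% of all 32851 promoters.

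Targets of p53, the factor that answers DNA damage, rose in 14 of 30 cases and fell in 3. Phlda3 rose from 0.610 to 0.692 CPM to between 2.73 and 6.28 CPM, and Eda2r, a death receptor, from 0.435 to 0.896 CPM to between 2.52 and 6.31 CPM. Cdkn1a, the p21 inhibitor of cyclin-dependent kinases, stood at 33.0, 15.3 and 12.5 CPM in control livers and at 50.1, 65.8, 42.9, 39.0 and 55 CPM in vehicle livers (log2 fold change 1.32 ± 0.300, FDR 0.00696). Mdm2, which feeds back on p53, had a log2 fold change of 0.24 and was not called, and Fas fell by 1.42 on the log2 scale. The number that fell was 1 without control 1.

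Most heat-shock chaperones of the cytosol and mitochondria were lower. Of 20 such genes 12 fell and 1 rose, with a median log2 fold change of −0.67. Hsph1, a partner of Hsp70, stood at 111, 137 and 92.3 CPM in control livers and at 30.4, 31.9, 56.9, 39.8 and 50.7 CPM in vehicle livers (log2 fold change −1.43 ± 0.260, FDR 0.00233). Hsp90aa1 fell by 1.05 on the log2 scale. The stress-inducible Hspa1a was at 110 CPM in control 1 and 26.3 and 35.0 CPM in the others and was not called. Cryab, the gene that rose, lost its call without control 1 (1.43) or control 3 (1.39). In the unfolded protein and integrated stress response 13 of 33 genes fell and 6 rose. Creld2, of the endoplasmic reticulum, fell from 96.1 to 161 CPM to between 30.5 and 53.5 CPM, and Atf4 by 0.55 on the log2 scale. Psat1, of serine synthesis, rose from 0.672 to 1.78 CPM to between 8.13 and 18.7 CPM, and Trib3 from 1.56 to 2.78 CPM to between 3.58 and 7.97 CPM. The number that rose was 3 without control 3 or without vehicle 1, 2, 4 or 5. In the list of cell death and danger signals 9 of 33 genes rose and 7 fell, or 4 without control 1 or vehicle 4. Ripk3, the necroptosis kinase, rose from 1.2 to 1.60 CPM to between 2.23 and 5.20 CPM, and Tnfrsf12a, the receptor of TWEAK, from 4.29 to 4.78 CPM to 28.0, 25.8, 16.6, 27.2 and 37.4 CPM. Of 7 metallothionein and zinc transport genes 2 fell, or 4 without vehicle 1. Mt1 was not called (log2 fold change −0.81, FDR 0.0546), except without vehicle 1 (−0.93).

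Most genes of DNA replication rose, while most mitotic genes did not pass. Of 53 genes of DNA replication and nucleotide supply, 33 rose and 2 fell, with a median log2 fold change of 0.86. The number that rose was 21 without control 1 or control 2 and 16 without control 3. Of 63 genes of mitosis and the spindle 6 rose and 1 fell, with a median of 0.84, and 2 rose without control 1, 3 without control 3, 12 without vehicle 3 and 13 without vehicle 5. By library size alone 32 rose, and DESeq2 called 18. The difference between these lists was not tested. In promoters of such genes, factors of the E2F family bind the letters TTTCCCGC, TTTGGCGC, TTTCGCGC and TTTGCCGC (either strand), and the CHR element TTTGAA (either strand) is bound by the complex that times mitotic genes. The stretches of 200 bases before the RefSeq start of 5 genes are shown from GRCm38.p6, because they carry these letters in genes whose values follow. Capitals mark every match to the E2F or CHR letters in these stretches. The CHR letters hold no E2F letters, and in Mcm5 an E2F match on each strand overlaps the other.
Mcm5, chr8:75109309-75109508, plus strand: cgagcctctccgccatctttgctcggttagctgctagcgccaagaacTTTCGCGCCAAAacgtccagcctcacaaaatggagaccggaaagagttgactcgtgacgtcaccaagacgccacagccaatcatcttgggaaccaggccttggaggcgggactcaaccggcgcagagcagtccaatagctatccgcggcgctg
Cdc6, chr11:98907951-98908150, plus strand: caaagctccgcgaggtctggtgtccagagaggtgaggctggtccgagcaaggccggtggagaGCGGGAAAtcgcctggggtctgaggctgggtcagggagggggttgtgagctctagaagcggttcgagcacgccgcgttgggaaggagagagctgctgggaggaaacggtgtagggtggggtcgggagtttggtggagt
Cdk1, chr10:69352913-69353112, minus strand: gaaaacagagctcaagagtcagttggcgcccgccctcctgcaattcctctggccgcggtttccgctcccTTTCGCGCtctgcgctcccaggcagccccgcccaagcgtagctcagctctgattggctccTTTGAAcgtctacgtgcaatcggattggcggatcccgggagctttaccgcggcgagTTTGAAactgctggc
Mki67, chr7:135716380-135716579, minus strand: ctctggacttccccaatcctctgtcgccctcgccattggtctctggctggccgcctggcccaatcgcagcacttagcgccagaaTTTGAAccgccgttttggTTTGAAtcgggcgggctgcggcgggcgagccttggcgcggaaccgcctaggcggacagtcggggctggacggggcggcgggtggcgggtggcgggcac
Top2a, chr11:99024190-99024389, minus strand: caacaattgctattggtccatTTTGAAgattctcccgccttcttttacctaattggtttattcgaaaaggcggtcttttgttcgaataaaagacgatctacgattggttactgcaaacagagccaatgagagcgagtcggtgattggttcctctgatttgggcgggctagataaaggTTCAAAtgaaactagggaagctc

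In Mcm5 the matches begin 153 and 149 bases before the start, in Cdc6 138 bases, in Cdk1 131 (E2F), 71 and 15 bases (CHR), in Mki67 116 and 98 bases and in Top2a 179 and 23 bases. The RefSeq start of Cdc6 lies 350 bases from that of the annotation used for the counts. Over the windows from 250 bases before to 50 after the start, E2F letters stood in 17 of 49 promoters of the DNA replication list (34.7%, 42 of 53 genes matched), 4 of 57 promoters of the mitosis list (7.02%, 53 of 63 genes matched) and 744 of all 32851 promoters (2.26%). CHR letters stood in 41 of the 57 mitosis promoters (71.9%), 6 of the 49 replication promoters (12.2%) and 17.9% of all promoters.

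Mcm5, a subunit of the replicative helicase, stood at 5.24, 5.19 and 4.07 CPM in control livers and at 21.3, 16.4, 10.0, 23.9 and 9.70 CPM in vehicle livers (log2 fold change 1.75 ± 0.472, FDR 0.016). Its call was lost without control 3 (1.64). Cdc6, which loads the helicase, rose from 0.494 to 0.582 CPM to 2.89, 2.40, 1.92, 4.70 and 1.51 CPM, and Uhrf1, which keeps DNA methylation through replication, from 2.61 to 3.22 CPM to between 6.97 and 20.4 CPM. Vehicle 1 and vehicle 4 were the highest and vehicle 3 and vehicle 5 the lowest. E2f8, a repressor among the E2F factors and a factor of polyploid hepatocytes, fell while most of the list rose. It went from 23.4, 37.8 and 34.2 CPM to 4.96, 3.73, 7.71, 5.13 and 10.1 CPM (log2 fold change −2.33 ± 0.275, FDR 0.00024). The other gene that fell was Dna2, by 0.29 on the log2 scale.

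The mitotic genes named here differed widely among the injured livers. Over the whole list of 63 genes, 60 log2 fold changes lay above 0 and 3 below. In 16 of the 63 the vehicle livers lay above the controls without overlap (17.5% of all genes did). Mki67, the proliferation marker, stood at 14.4, 11 and 9.94 CPM in control livers and at 28.9, 13.5, 12, 32.3 and 7.94 CPM in vehicle 1 to 5. Vehicle 1 and vehicle 4 lay above all controls, vehicle 5 below all of them, and the gene was not called (log2 fold change 0.69 ± 0.514, FDR 0.336). Cdk1, the kinase that starts mitosis, lay at 1.15 to 1.21 CPM in control livers and at 4.66, 2.61, 1.99, 6.00 and 1.30 CPM in vehicle livers. It did not overlap and missed the threshold (FDR 0.0603), and was called higher without vehicle 3 (log2 fold change 1.63) or vehicle 5 (1.71). Top2a was likewise highest in vehicle 4 and vehicle 1 and lowest in vehicle 5, at 18.3, 8.81, 8.96, 20.8 and 5.46 CPM against 5.99 to 7.08 CPM. Summed over the mitosis list the controls held 142 to 155 CPM and the vehicle livers 294, 184, 176, 328 and 144 CPM.

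Genes of growth signals were called about as often as genes in general. Of 31 cyclins of G1, growth factors and receptors, 6 rose and 4 fell, the latter 2 without control 3. The share called was 32.3%, near the background of 29.8%. Hbegf and Ereg, ligands of the EGF receptor, rose, Hbegf from 0.877 to 1.03 CPM to between 3.31 and 8.44 CPM. Egfr itself stood at 1620, 1990 and 2470 CPM in control livers and at 623, 441, 692, 630 and 525 CPM in vehicle livers (log2 fold change −1.80 ± 0.183, FDR 9.6e-05). Myc rose from 3.56 to 11.3 CPM to between 13.4 and 27.8 CPM. Hgf and Ccnd1 were not called, and Ccnd1 stood within 28.1 to 29.6 CPM in all vehicle livers beside 15.2, 33.8 and 15.8 CPM in control livers. Igfbp1, an early gene of regeneration and of fasting, went from a log2 fold change of −0.22 to 1.32, called higher, without control 1, which held 663 CPM. Socs2, which follows growth hormone, fell by 1.76 on the log2 scale.

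Most markers of recruited macrophages rose, while the 5 defining markers of resident Kupffer cells were not called. Of 30 markers of recruited monocytes and lipid-associated macrophages 17 rose and 2 fell, with a median log2 fold change of 1.90. Chil3, a secreted lectin of monocytes and alternatively activated macrophages (chr3:106147554-106167564, minus strand), had the largest rise of the genes named by rule. It stood at 1.05, 0.550 and 0.356 CPM in control livers and at 34.7, 20.4, 18.7, 56.1 and 35.8 CPM in vehicle livers (log2 fold change 5.67 ± 0.579, FDR 9.8e-05). Mmp12, the macrophage elastase (chr9:7344381-7369499, plus strand), stood at 0.316 to 1.09 CPM in control livers and at 29.1, 16.9, 9.76, 22.7 and 18.9 CPM in vehicle livers. Gpnmb, of phagocytes that carry lipid and debris (chr6:49036546-49070929, plus strand), rose from 0.178 to 1.58 CPM to between 11.4 and 28.5 CPM. Lgals3, galectin-3, stood at 3.51, 3.66 and 3.52 CPM in control livers and at 45.7, 32.3, 21.3, 44.3 and 45.2 CPM in vehicle livers. Trem2, a lipid receptor of these cells, and Ccr2, the receptor of Ccl2 on monocytes, rose by 2.78 and 2.62 on the log2 scale. Ly6d, a surface protein of the Ly6 family outside this list, rose by 5.22. Spp1 stood at 253 CPM in vehicle 4 and at 31.4 to 78.8 CPM in the other vehicle livers and was not called, though it was without vehicle 3 (log2 fold change 2.18). The list's 2 genes that fell were Fabp5, a fatty acid binding protein, and F10, coagulation factor X, which hepatocytes make.

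Of 22 Kupffer cell markers, 3 rose and 3 fell, and the 5 that define the cells were not called. Clec4f stood at 64.2, 73.2 and 90.1 CPM in control livers and at 71.7, 55.3, 55.1, 55.5 and 34.9 CPM in vehicle livers, and Timd4 at 5.97 to 6.88 CPM against 3.86 to 7.48 CPM. Adgre1, Cd5l and Vsig4 had log2 fold changes of 0.32, 0.23 and 0.14. Among those that rose, Cd68 and Marco are shared with other macrophages, with Cd68 at 8.54, 10.1 and 9.84 CPM in control livers and at 51.1, 43.3, 31.6, 50.1 and 44.0 CPM in vehicle livers. The list's lowest log2 fold change, −1.90, belonged to C6, a complement component that hepatocytes make. The number of Kupffer genes that fell was 1 without vehicle 4 or vehicle 5.

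Receptors for debris and Fc receptors gave 16 rises and 3 falls among 29 genes. The summed level of the list went the other way, at 3640 to 4960 CPM in control livers and 3050 to 3480 CPM in vehicle livers. Axl, a receptor of apoptotic cells, stood at 33.1, 37.1 and 38.3 CPM in control livers and at 85.4, 71.5, 50.6, 75.9 and 50.9 CPM in vehicle livers, and its relative Tyro3 rose by 1.79 on the log2 scale. Gas6, the ligand that bridges both to dead cells, fell from 66.2, 183 and 174 CPM to between 37.8 and 56.3 CPM. Mertk, the third receptor, was not called (log2 fold change 0.25). Of 41 lysosomal genes 14 rose and 5 fell, the latter 2 without control 1 and 3 without control 2, control 3, vehicle 1, vehicle 4 or vehicle 5. Cd63, a membrane protein of lysosomes and exosomes, rose from 2.39 to 4.5 CPM to between 14.4 and 38.9 CPM.

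Markers of other blood cells were low. Of 15 neutrophil markers 2 rose, or 4 without control 1 and 1 without control 2, control 3, vehicle 1, vehicle 4 or vehicle 5. Their median log2 fold change was 1.12, with 13 above 0 and 2 below, and the groups overlapped for most of them. The 2 that rose with all livers were Cd177, from 0.0593 to 0.381 CPM to between 0.697 and 1.43 CPM, and Clec4d, with overlap. Cd177 and Clec4d had log2 fold changes of 2.54 and 2.03, while S100a8 and Cxcr2 were not called. S100a8 stood at 4.14, 1.51 and 0.593 CPM in control livers and at 1.08 to 7.63 CPM in vehicle livers, and Cxcr2 at 0.316 to 1.81 CPM against 0.852 to 5.50 CPM. Of 21 genes of T and natural killer cells 1 rose and 1 fell, and neither passed without control 3. The defining T cell genes Cd3e and Cd8a lay under 0.5 CPM in all 8 livers.

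Matrix and stellate cell genes rose. Of 34 genes of collagens, matrix and its remodelling 18 rose and none fell, with a median log2 fold change of 1.35. The number that rose was 12 without control 2 and 6 without control 3, which held the lowest collagen levels of the controls. Col1a1 stood at 50.2, 39.7 and 15.5 CPM in control livers and at 271, 127, 97.1, 312 and 128 CPM in vehicle livers (log2 fold change 2.41 ± 0.634, FDR 0.0142), and its call was lost without control 3 (2.06). Vehicle 1 and vehicle 4 were again the highest. Tnc, tenascin C, a matrix protein of wounds (chr4:63959785-64047015, minus strand), stood at 1.54 to 3.64 CPM in control livers and at 67.4, 73.8, 26.0, 90.0 and 43.3 CPM in vehicle livers (log2 fold change 4.49 ± 0.664, FDR 0.00081). Timp1, an inhibitor of matrix proteases, rose from 0.079 to 1.09 CPM to between 2.83 and 11.3 CPM. Plat, the tissue plasminogen activator, and F13a1, the clot cross-linking factor of macrophages, rose by 3.98 and 4.03 on the log2 scale.

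Of 23 genes of stellate cells 11 rose and none fell, or 7 without control 3. Acta2, the actin of activated stellate cells and smooth muscle, stood at 6.17, 5.93 and 2.19 CPM in control livers and at 30.1, 36.8, 20.2, 52.5 and 31.1 CPM in vehicle livers, and Pdgfrb, their growth factor receptor, rose from 16.2 to 19.8 CPM to between 31.3 and 64.3 CPM. Lrat and Reln, genes of stellate cells at rest, were not called (log2 fold changes 0.10 and −0.30), though Lrat was called higher without control 3 (0.63). Sinusoidal endothelial cells gave 9 rises and no fall among 29 genes, or 5 rises without control 3. Lyve1, their hyaluronan receptor, rose from 8.06 to 15.5 CPM to between 19.0 and 39.6 CPM, and Angpt2 from 1.30 to 2.78 CPM to between 4.99 and 12.3 CPM, with its call lost without control 3 (1.75). Stab2 and Kdr were not called. In the biliary and progenitor list 3 of 21 genes rose and 1 fell, no more than the background shares, and 5 rose without vehicle 3. Afp, the fetal counterpart of albumin, rose from 1.51 to 3.73 CPM to between 6.41 and 18.2 CPM, while Krt19 and Sox9 were not called.

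Genes of cell shape rose in most cases. Of 33 genes of the actin, tubulin and keratin cytoskeleton 22 rose and 2 fell, the latter 1 without control 2. Krt8 and Krt18, the keratin pair of hepatocytes, stood at 155 to 171 CPM and 150 to 208 CPM in control livers. In vehicle 1 to 5 Krt8 stood at 636, 777, 411, 689 and 684 CPM (log2 fold change 1.97 ± 0.374, FDR 0.00287) and Krt18 at 465, 601, 320, 587 and 538 CPM. Vehicle 3 was the lowest injured liver for both. Actb, cytoplasmic actin, rose from 973 to 1020 CPM to between 1430 and 2260 CPM. Of 19 annexins and S100 proteins, which bind calcium at membranes, 11 rose and none fell. Anxa2 stood at 13.8, 10.2 and 8.26 CPM in control livers and at 129, 145, 75.2, 172 and 170 CPM in vehicle livers (log2 fold change 3.69 ± 0.524, FDR 0.00068). Among 20 genes listed for YAP and TAZ, the factors that respond to cell shape and stretch, 12 rose and 3 fell. Those that fell were Amotl2, Dlc1 and Yap1, Amotl2 by 0.86 and Dlc1 by 0.69 on the log2 scale. The number that fell was 1 without control 1. Besides targets the list holds Yap1 itself, among the falls (log2 fold change −0.22), and Wwtr1, the gene of TAZ, not called. It also holds their partners Tead1 and Tead4, among the rises (0.94 and 1.30). Ccn2 rose from 2.00 to 6.72 CPM to between 18.6 and 47.9 CPM and Ankrd1 from 0.286 to 0.336 CPM to between 0.600 and 3.45 CPM.

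**Figure D4:**
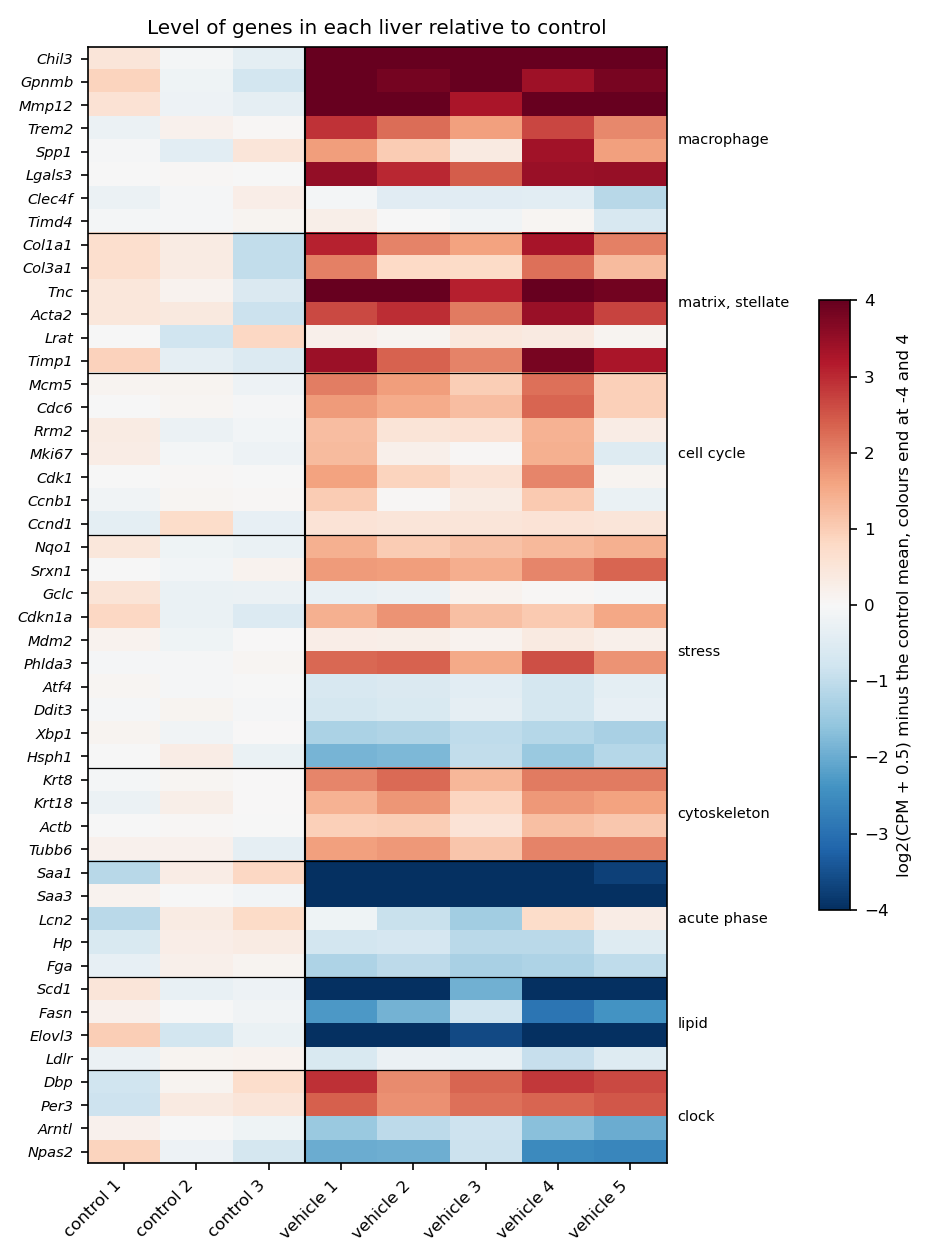
Heat map of 48 genes (rows, grouped by theme) in the 3 control and 5 vehicle livers (columns), coloured by log2(CPM + 0.5) minus the control mean, with colours ending at −4 and 4. Chil3 and Saa3 separate the groups in every liver, while Mki67 and Cdk1 are highest in vehicle 1 and vehicle 4.

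Energy and protein machinery changed by small amounts that depended on the scaling. Of 80 nuclear-encoded subunits of the respiratory chain 33 fell and 1 rose, with a median log2 fold change of −0.29. The number that fell was 7 without control 1, 18 without control 2 or vehicle 2, 15 without vehicle 4 and 16 without vehicle 5, and by library size alone none fell and 9 rose. The 13 mitochondrially encoded genes had a median log2 fold change of −0.28 and summed to 45500 to 49500 CPM in control and 33800 to 40600 CPM in vehicle livers, and in 11 of them the vehicle livers lay below the controls without overlap (17.3% of all genes did). They gave 2 falls, or none without control 2 or control 3, and 1 without control 1 or without vehicle 1, 2, 4 or 5. The mitochondrially encoded share of all counts before TMM scaling covers more genes than these 13. It was 5.45% ± 0.415 (SD, n = 3) in control livers and 5.46% ± 0.589 (SD, n = 5) in vehicle livers. A two-sided exact permutation test over 56 splits gave p = 0.982 for this share. Of 80 cytosolic ribosomal proteins 23 rose and 1 fell, and the number that rose was 9 without control 2, 4 without control 3, 13 without vehicle 1, 11 without vehicle 4 and 12 without vehicle 5. By library size alone 77 rose. Of 38 proteasome subunits 7 fell and 1 rose, and no more than 4 fell without control 1, control 3, vehicle 1, vehicle 2 or vehicle 4 (1 to 4). By library size alone none fell and 16 rose. Of 25 autophagy genes 8 fell, or 2 without control 1 and 5 without control 3, while by library size alone 1 fell and 8 rose. Of 35 genes of ribosome assembly 7 rose and 2 fell, and 2 to 4 rose without control 2, control 3, vehicle 4 or vehicle 5. Scaled by library size alone, 20 rose. Amino acid catabolism gave 8 falls and 2 rises among 39 genes. The falls were 3 without control 1, control 2 or vehicle 4, 4 without control 3 and 5 without vehicle 5, and by library size alone 2 fell and 7 rose.

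Immediate-early genes depended on control 1. Of 25 such genes 5 rose and 3 fell, while without control 1, 10 rose and none fell, and without vehicle 1 a single gene fell. Junb stood at 297 CPM in control 1, at 82.7 and 73.6 CPM in the other controls and at 26.7 to 66.3 CPM in vehicle livers. Its log2 fold change of −1.68 became −0.73, not called, without control 1. Klf6 rose from 10.6 to 19.5 CPM to between 34.9 and 76.3 CPM. Fos was not called, at 4.68, 45.3, 26.8, 10.1 and 11.2 CPM in vehicle 1 to 5 against 4.66 to 14.0 CPM.

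Red blood cell genes rose with a wide spread among the injured livers. Of 11 such genes 6 rose and 1 fell. Hba-a1, an alpha globin, stood at 62.1, 58.5 and 21.6 CPM in control livers and at 157, 105, 77.5, 218 and 841 CPM in vehicle livers. Vehicle 5 held several times the level of the next liver. The call (log2 fold change 2.56, FDR 0.0303) was lost without any 1 control liver (2.80, 2.74 and 2.21), where the list gave 0, 1 and 0 rises. Alas2, the first enzyme of haem synthesis in red cell precursors, fell from 64.5 to 88.2 CPM to between 16.6 and 30.0 CPM. In iron handling 5 of 22 genes rose and 6 fell, with 3 rises without control 1, control 3, vehicle 1 or vehicle 2. Id1, a target of BMP signals, rose from 2.45 to 3.08 CPM to 23.7, 23.4, 17.1, 25.9 and 9.57 CPM, and Fth1, the ferritin heavy chain, from 528 to 645 CPM to between 894 and 1220 CPM. Hamp, hepcidin, the hormone that closes iron export, stood at 409 to 597 CPM in control livers and at 551, 546, 492, 601 and 28.1 CPM in vehicle 1 to 5.

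The 5 injured livers differed among themselves in several directions. Vehicle 1 and vehicle 4 were the highest for Mki67, Cdk1, Top2a and Col1a1, and vehicle 4 had the least pericentral message. Vehicle 3 kept the most of it, with the highest Scd1 and the lowest Krt8, Tnc and Cd68 of the 5. Vehicle 5 combined low Hamp, Cps1 and Mki67 with the highest globin and immunoglobulin messages. Ighm stood at 54.7 CPM in vehicle 5 and at 2.5 to 6.42 CPM in all other livers of the comparison, and Igkc at 26.6 CPM against 0.739 to 2.71 CPM. Neither was called. Without vehicle 5, Igkc was called lower after APAP, at a log2 fold change of −1.29. The part of blood in these values was not tested.

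**Figure D5:**
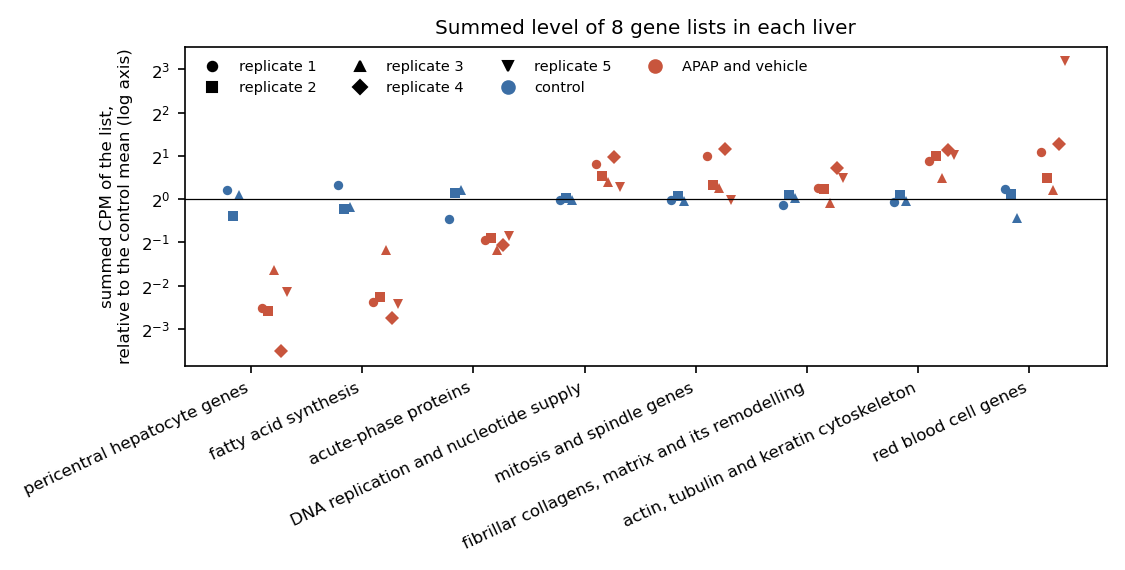
Summed CPM of 8 gene lists in each liver, divided by the mean of the 3 control livers and drawn on a log axis, with 1 symbol per replicate number (blue, control; red, APAP and vehicle). Pericentral genes lie below 1 in all 5 vehicle livers, mitosis and spindle genes are highest in vehicle 1 and vehicle 4, and the red blood cell genes of vehicle 5 stand far above the rest.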

How the data were processed

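Total RNA from mouse liver was depleted of ribosomal RNA and sequenced with a directional kit. The authors trimmed reads with Cutadapt 4.6, aligned them to GRCm38 with STAR 2.7.1a, counted them per gene with summarizeOverlaps and deposited raw counts. The strand setting is not given in the sources used here. No sample column was left unused (0), and 59 gene IDs had no symbol. Counts were fitted with edgeR 4.0.16 (R 4.3.3) over all 12 livers, with TMM factors, filterByExpr by group (22581 of 24187 genes kept) and the quasi-likelihood test, called at a Benjamini-Hochberg FDR under 0.05. The SE is the log2 fold change divided by the square root of F. Changes over 2-fold were tested with glmTreat. The scripts were tested on simulated data. Alternatives were DESeq2 1.42.0, other scalings and filters, left-out livers and a replicate block.

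Members and lists were chosen with earlier results of these data known. Named genes were the 10 largest rises and falls without overlap (mean log2 CPM of at least 2), the 10 largest gains and losses of CPM, defining list members, the 2 most changed members per list and direction, and the 10 most variable genes. Crp, Ddx3y, Fbp1, Per3, Stat3, Steap4, Tnfrsf1a and Xist were named after their values were seen. Whether replicates came from separate animals is taken from the study, and p-values measure the spread between these livers.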

Additional observations from a re-analysis of the deposited data

Results flagged for a closer look

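For 23 of 220 gene or list values examined, 1 of the 5 vehicle livers lay apart from the other 4 by Dixon's criterion. Chance alone marks about 5% of groups. The naming rules also took in genes that varied most among these same vehicle livers, so 5% is no fair benchmark for them. The values are not independent of each other.

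Vehicle 3 stood apart most often. Its lipid synthesis genes were higher than in the other injured livers, with a summed level of 6210 CPM beside 2090 to 2910 CPM, Scd1 at 2100 CPM beside 221 to 366 CPM, Acacb at 81.2 CPM beside 20.1 to 37.4 CPM and Elovl6 at 41.7 CPM beside 17 to 23.8 CPM. Cyp2c29 stood at 112 CPM beside 3.16 to 32.9 CPM, and the clock gene Npas2 at 6.58 CPM beside 1.58 to 2.79 CPM. The summed growth factor and G1 genes reached 2580 CPM beside 2200 to 2280 CPM. Vehicle 3 was lower in the p53 target Eda2r (2.52 CPM beside 5.44 to 6.31 CPM), in Abcc4 (8.48 CPM beside 10.5 to 11 CPM), in summed sinusoidal endothelial genes (903 CPM beside 1100 to 1160 CPM) and in summed iron genes (29800 CPM beside 37100 to 38700 CPM).

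Vehicle 5 stood apart in blood and iron genes. Summed red blood cell genes reached 2100 CPM beside 266 to 557 CPM and Hba-a1 841 CPM beside 77.5 to 218 CPM. Summed B cell genes reached 95.9 CPM beside 7.64 to 9.72 CPM, with Ighm at 54.7 CPM beside 2.5 to 3.17 CPM and Igkc at 26.6 CPM beside 0.739 to 1.19 CPM. Hamp fell to 28.1 CPM beside 492 to 601 CPM. Acot2 stood at 40.2 CPM beside 5.15 to 13.6 CPM, Lyve1 at 39.6 CPM beside 19.0 to 24.7 CPM and Socs2 at 12.7 CPM beside 6.13 to 6.86 CPM.

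Vehicle 2 held the highest Mug1 (7870 CPM beside 6670 to 6790 CPM) and Cyp2a12 (491 CPM beside 416 to 435 CPM), and vehicle 4 the highest Spp1 (253 CPM beside 31.4 to 78.8 CPM).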

How the results depend on the processing

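Of 241 called genes among the 364 named by rule or in the text, 146 kept their direction and stayed called under every alternative. By library size alone 8637 genes were higher and 1110 lower, with 391 higher over 2-fold. An FDR of 0.01 left 3183 genes (1517 higher, 1666 lower), and a mean CPM of at least 1 left 194 over 2-fold (97 higher, 97 lower). Leaving out 1 liver, or vehicle 3 with hAAM replicate 4, gave 4633 to 7088 genes, 2226 to 3621 of them higher, and 142 to 480 over 2-fold (52 to 274 higher, 90 to 220 lower), each lowest without control 3. The number of genes higher over 2-fold was 121 without vehicle 1 and 115 without vehicle 4. The cause of these shifts was not tested.

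Same-numbered control and vehicle livers had correlations of −0.075, −0.059 and 0.053. For same-numbered vehicle and hAAM livers they were 0.228, −0.25, 0.551 and −0.662. So few pairs cannot decide whether replicate numbers pair livers, and the main fit used no block. With replicate number as a block 4253 genes passed (2191 higher, 2062 lower), 200 over 2-fold (98 higher, 102 lower), and Igkc came to −1.19.

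Scaling by library size alone turned the sign of 712 of the 6719 calls. Among the called named genes these were Pttg1 (0.05), Psmc2 (0.06), Lamp1 (0.07) and Dna2 (0.06), none called there, and Kdr, not called with TMM, was called higher there (0.24). Over the left-out livers Igfbp1 ran from −0.71 to 1.32, Nlrp3 from −0.64 to 1.13 and Igkc from −1.29 to 1.70. With 3 controls, calls near the threshold rest on single livers, and list counts of 1 to 3 often moved by 1 or 2 genes.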
